A study of Homo sapiens with 12 samples.

Results

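The 10 genes of serine, one-carbon and asparagine synthesis described here were followed in polysome RNA of triple-negative breast cancer (TNBC) cells: ASNS, PHGDH, PSAT1, PSPH, SHMT1, SHMT2, MTHFD1, MTHFD2, MTHFD1L and ALDH1L2. They were chosen by symbol, and the transcripts of the count table were summed per symbol. They are 10 of the 24559 symbols of the series, and all 10 were among the 16538 that passed the filter on low counts. The study sequenced RNA from sucrose-gradient polysome fractions, the fractions in which mRNAs carry several ribosomes, in 12 libraries of 3 established TNBC lines. The table lists transcripts detected in BT549, so a transcript absent there is not counted in the other lines. TRMT112, a small cofactor of RNA and protein methyltransferases, was knocked down (KD) in MDA-MB-231 and SUM159 and overexpressed (OE) in BT549.

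Each of the 6 groups had 2 libraries. MDA-MB-231 KD and SUM159 KD cells carried a GIPZ lentiviral shRNA plasmid against TRMT112, introduced by lipid transfection and selected with puromycin. Their controls, labelled EV CTRL, carried a non-silencing GIPZ shRNA according to the methods of the study. BT549 OE cells carried a TRMT112 open reading frame clone selected with G418, and their EV CTRL cells the empty pReceiver-M02 vector. Apart from this selection, cells of all groups shared 1 treatment: ribosomes were arrested on mRNA with cycloheximide shortly before lysis. MDA-MB-231 and SUM159 grew in DMEM/F-12, SUM159 with added insulin and hydrocortisone, and BT549 grew in RPMI medium, so line and medium cannot be told apart in comparisons between lines. The labels do not say whether the libraries of a group came from separate cultures, so the p-values measure only the spread between these libraries.

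Serine is made from a glycolytic intermediate in 3 steps, by the dehydrogenase PHGDH, the aminotransferase PSAT1 and the phosphatase PSPH. SHMT1 in the cytosol and SHMT2 in mitochondria move a carbon of serine onto folate, and the MTHFD enzymes and ALDH1L2 interconvert and release these folate-bound carbon units, which feed purine and thymidylate synthesis. ASNS makes asparagine from aspartate and glutamine. Several of these genes are known targets of ATF4, the transcription factor of the integrated stress response, and dependence on serine synthesis is known to vary between breast cancer lines.

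TRMT112 followed the labels in every library. Its normalized counts were 4147 and 3938 in MDA-MB-231 EV against 1764 and 1682 in KD, 6332 and 6565 in SUM159 EV against 3908 and 3699 in KD, and 3076 and 3088 in BT549 EV against 4286 and 4319 in OE. The log2 fold changes were -1.23 ± 0.04 (SE), -0.76 ± 0.04 and 0.48 ± 0.04. VIM, a mesenchymal marker, lay between 594 and 1870 TPM, a unit corrected for transcript length, over the 12 libraries, and ERBB2 between 26.5 and 55.7. The ranges hide shifts within lines: VIM was 1660 and 1670 TPM in BT549 EV and 600 and 594 in OE, and 1860 and 1870 in SUM159 EV and 1400 and 1340 in KD. ERBB2 was 53.1 and 55.7 TPM in BT549 EV and 26.5 and 28.2 in OE, and PECAM1 had 24 and 25 counts in SUM159 EV and 88 and 119 in KD. Whether these shifts have a part in the results below was not tested. PGR reached at most 0.239 TPM, the leukocyte marker PTPRC 0.33, the endothelial marker PECAM1 1.05 and the epithelial marker EPCAM 4. Library totals lay between 22954226 and 27434677 expected counts. TMM-normalized counts, which correct for library size and composition, are used to compare a gene between libraries, and TPM to compare genes with each other.

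Promoter sequence was examined because ATF4 dimers bind the C/EBP-ATF response element, of which TGATGNAAN is a short form. RefSeq promoter windows (GRCh38.p14, 250 bases before to 50 after a transcription start) were matched by symbol for 7 of the 10 genes, in 11 windows. The motif, searched on both strands, stood in windows of ASNS and MTHFD1L, and in 3.61% of 35116 promoter windows in all. A gene with several windows can match in any of them, so this share of windows does not compare directly with a count of genes. The stricter TGATGCAA stood in 0.866% of them and, among the 7 genes, in MTHFD1L. No match was present in the windows of PHGDH, PSAT1, SHMT1, MTHFD1 or MTHFD2. The sequences below are the 250 bases before the start, 5′ to 3′ on the strand of the gene, for the genes with a match and for PHGDH and PSAT1, picked after their values were seen because they fell by over 2 on the log2 scale in SUM159 KD, as ASNS did. Capitals mark the match, which begins 68 bases before the ASNS start at 97872408 and 129 bases before the MTHFD1L start at 150866486. Other annotated starts place these matches differently. The ASNS transcript ASNS-201 starts at 97872542, so the match lies after its start and not upstream of it. The MTHFD1L match has an offset of -90 from the start at 150866447. From the start at 150866333 its offset is 24, so it is not upstream there. The regions are chr7:97872409-97872658 (minus strand) for ASNS, chr6:150866236-150866485 (plus) for MTHFD1L, chr1:119711684-119711933 (plus) for PHGDH and chr9:78296875-78297124 (plus) for PSAT1.
ASNS: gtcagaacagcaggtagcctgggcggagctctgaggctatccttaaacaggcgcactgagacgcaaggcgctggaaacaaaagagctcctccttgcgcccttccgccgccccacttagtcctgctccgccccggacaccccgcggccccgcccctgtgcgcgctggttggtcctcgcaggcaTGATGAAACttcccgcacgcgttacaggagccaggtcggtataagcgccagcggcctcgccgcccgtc
MTHFD1L: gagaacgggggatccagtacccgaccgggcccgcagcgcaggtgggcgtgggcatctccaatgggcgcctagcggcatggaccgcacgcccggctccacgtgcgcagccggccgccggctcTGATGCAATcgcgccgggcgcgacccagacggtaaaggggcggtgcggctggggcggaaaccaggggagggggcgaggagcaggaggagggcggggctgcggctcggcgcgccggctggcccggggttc
PHGDH: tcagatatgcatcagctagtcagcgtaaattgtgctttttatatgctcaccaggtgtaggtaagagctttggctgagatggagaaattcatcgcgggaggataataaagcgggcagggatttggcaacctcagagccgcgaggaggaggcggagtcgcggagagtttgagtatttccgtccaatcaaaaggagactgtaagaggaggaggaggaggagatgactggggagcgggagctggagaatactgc
PSAT1: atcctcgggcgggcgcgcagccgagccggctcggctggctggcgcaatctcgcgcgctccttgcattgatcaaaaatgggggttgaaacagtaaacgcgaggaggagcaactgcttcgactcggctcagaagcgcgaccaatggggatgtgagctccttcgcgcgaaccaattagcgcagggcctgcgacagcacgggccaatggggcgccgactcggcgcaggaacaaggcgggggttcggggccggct
A match is a description of these letters and not evidence of binding, which was not measured here.

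In each of the KD lines most of the 10 genes were lower, but these were only partly the same genes. In MDA-MB-231, 8 genes were lower in KD and 0 higher, by edgeR's quasi-likelihood test at an adjusted p under 0.05, where 16.5% of all genes tested were lower and 21.2% higher. Of these 8 calls, that of ALDH1L2 rests on 12 reads against 2, in a gene that passed the filter through BT549, and that of MTHFD2 (-0.08) was lost under several alternatives given below, which leaves 6. In SUM159, 8 were lower and 0 higher, where 31.4% of all genes were lower and 28.6% higher, and 6 of the 8 fell by at least 1 on the log2 scale, where 8.39% of all genes did. In BT549 OE, 7 were lower and 2 higher, against 35.0% and 35.6% of all genes. Among these 7, the call of PHGDH was lost when certain single libraries were left out, as given below. The median log2 fold change of the genes was -0.37 in MDA-MB-231 (9 genes with enough counts for a fold), -1.48 in SUM159 and -0.25 in BT549, where the medians over all genes were 0.00, 0.00 and 0.02. These are polysome levels without matched unfractionated RNA, so less mRNA and fewer mRNAs on polysomes cannot be told apart. Fewer cells expressing a gene and less RNA per cell cannot be told apart either. TMM also sets the overall level of the libraries equal, so each change is relative to the other polysome RNA. The paper reports smaller polysome peaks with KD in both lines and larger ones with OE in BT549. Changes in the absolute amount of a gene on polysomes are therefore not given here.

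**Figure D1:**
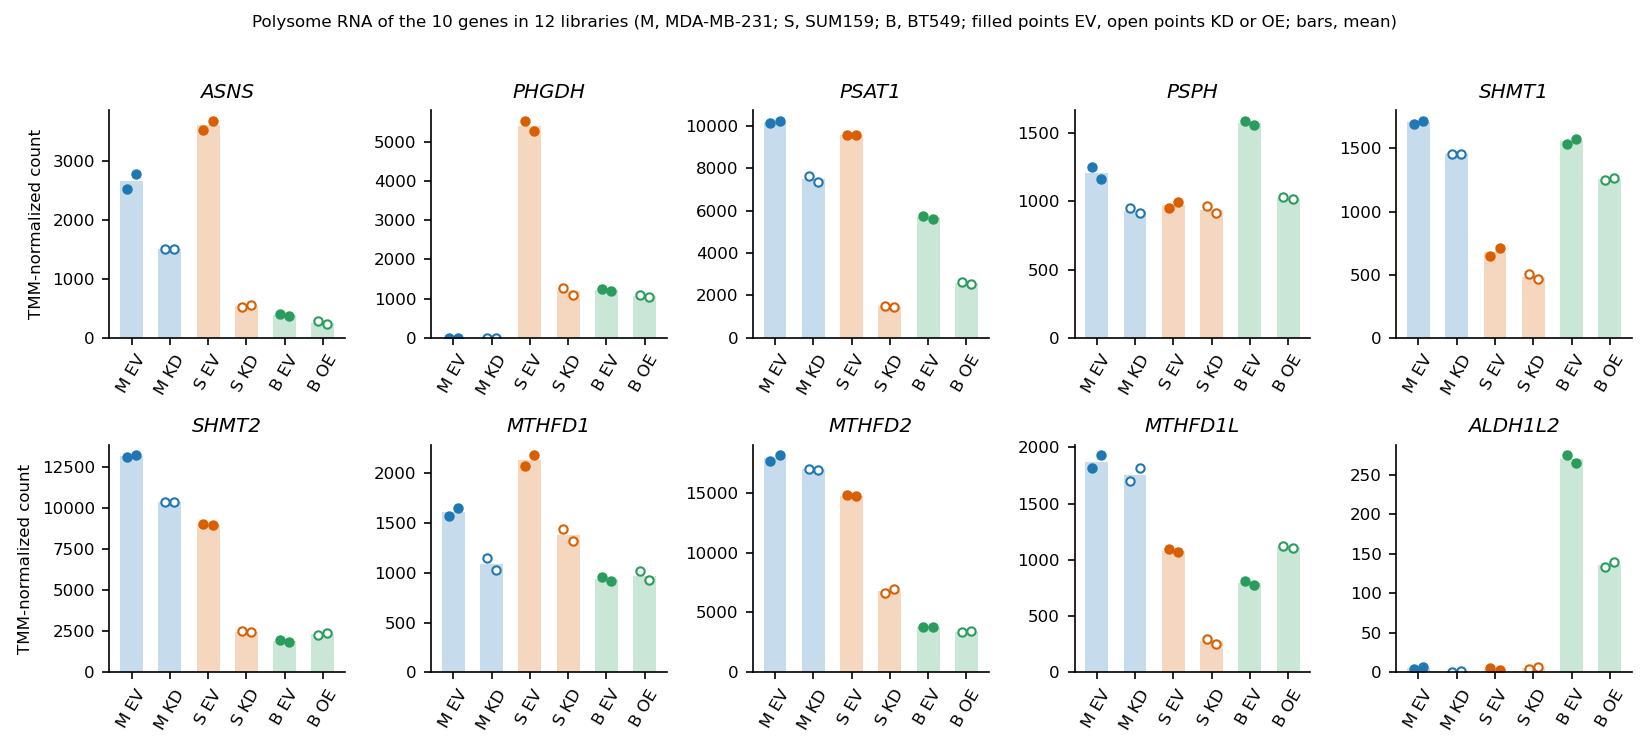
TMM-normalized counts (vertical axes, each from 0) of the 10 genes in the 12 libraries; points are libraries, filled for EV and open for KD or OE, and bars are the means of 2 libraries. In SUM159 the KD libraries sit far under the EV libraries for ASNS, PHGDH, PSAT1, SHMT2, MTHFD2 and MTHFD1L, while those of PSPH overlap.

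**Figure D2:**
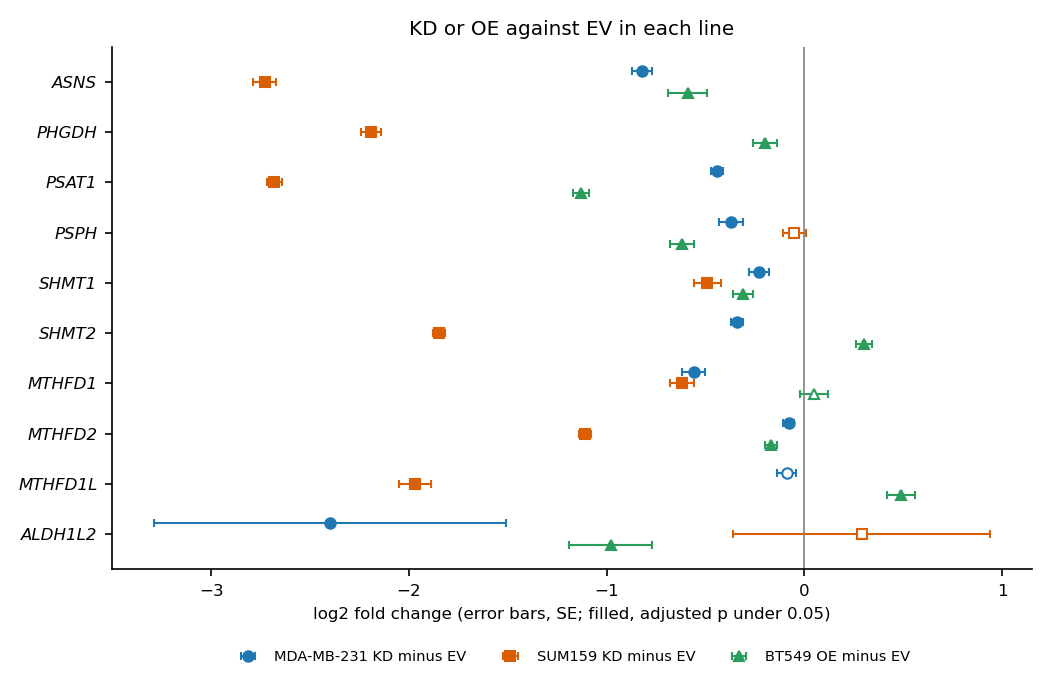
log2 fold change of KD or OE against EV (horizontal axis) for each gene, with SE bars; filled symbols passed an adjusted p under 0.05. SUM159 values run down to -2.73 (ASNS); PHGDH in MDA-MB-231 has no value because at most 2 counts were seen, and those of ALDH1L2 in MDA-MB-231 and SUM159 rest on 2 to 12 counts a group.

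PHGDH, the first enzyme of serine synthesis, separated the 3 lines more than any other of the 10 genes. Its normalized counts were 5526 and 5268 in SUM159 EV and 1242 and 1197 in BT549 EV, while MDA-MB-231 EV had 2 reads in each library and MDA-MB-231 KD 0 in each. The EV groups of the 3 lines did not overlap. Against a limit of 3 counts per library, PHGDH was at least 1940-fold higher in SUM159 EV and at least 438-fold higher in BT549 EV than in MDA-MB-231 EV. The change in MDA-MB-231 KD cannot be given, since both groups lay under that limit. In SUM159 KD the counts were 1276 and 1102, below both EV libraries, a log2 fold change of -2.19 ± 0.05 (adjusted p = 3.92e-19, edgeR), or 4.54-fold lower. This placed SUM159 KD at the level of BT549 EV, with overlapping libraries. In BT549 OE the counts were 1081 and 1049, also below both EV libraries, with a log2 fold change of -0.20 ± 0.06 (adjusted p = 0.0104). That call was lost without BT549 EV replicate 1 (-0.17, adjusted p = 0.0645) and without BT549 OE replicate 2 (-0.18, adjusted p = 0.062).

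PSAT1, which transfers the amino group, was abundant in all 3 lines and fell in all 3 comparisons. The counts were 10131 and 10223 in MDA-MB-231 EV and 7648 and 7332 in KD, a log2 fold change of -0.44 ± 0.03 (adjusted p = 1e-10, edgeR). In SUM159 they were 9548 and 9578 in EV and 1505 and 1475 in KD, a change of -2.68 ± 0.04 (adjusted p = 1.84e-24), or 6.42-fold lower. No KD library came near an EV library of its line. In BT549 the counts were 5751 and 5603 in EV and 2647 and 2532 in OE, a change of -1.13 ± 0.04 (adjusted p = 1.62e-18). PSAT1 was the 1 member that fell by at least 1 there. Of the 16538 genes tested, 2518 did so, and the members do not stand out by this count.

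PSPH, which releases serine in the last step, did not follow PSAT1 in SUM159. Its counts there were 952.7 and 992.2 in EV and 962.8 and 911.6 in KD, overlapping, with a log2 fold change of -0.05 (95% interval -0.17 to 0.06, adjusted p = 0.445). In MDA-MB-231 the counts were 1246 and 1164 in EV and 948.1 and 910.5 in KD, without overlap, a change of -0.37 ± 0.06 (adjusted p = 1.29e-05). In BT549 they were 1587 and 1554 in EV and 1031 and 1013 in OE, a change of -0.62 ± 0.06 (adjusted p = 9.85e-10). The TPM ratio of PSAT1 to PSPH was accordingly 7.55 and 7.10 in the SUM159 EV libraries and 1.23 and 1.24 in the KD libraries, while the MDA-MB-231 libraries held 7.22 and 7.53 with EV, and 7.26 and 6.83 with KD. The BT549 ratio went from 2.99 and 3.07 with EV to 2.18 and 2.08 with OE.

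SHMT2, the mitochondrial serine hydroxymethyltransferase, fell with KD and rose with OE, the direction TRMT112 itself took in each line. Its counts were 13118 and 13214 in MDA-MB-231 EV and 10392 and 10388 in KD, a log2 fold change of -0.34 ± 0.03 (adjusted p = 3.6e-09, edgeR). In SUM159 they were 9010 and 8952 in EV and 2528 and 2442 in KD, a change of -1.85 ± 0.03 (adjusted p = 2.72e-22). Neither pair of groups overlapped. In BT549 the counts were 1952 and 1846 in EV and 2289 and 2376 in OE, a rise of 0.30 ± 0.04 (adjusted p = 4.69e-07). SHMT2 was the single member lower in KD in both lines and higher in OE, a pattern that 2.99% of all genes tested showed. It was 6.93-fold lower in BT549 EV than in MDA-MB-231 EV.

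SHMT1, the cytosolic enzyme of the same reaction, fell in all 3 comparisons by less than 0.5 on the log2 scale. The changes were -0.23 ± 0.05 in MDA-MB-231 KD (adjusted p = 0.000901), -0.49 ± 0.07 in SUM159 KD (adjusted p = 8.38e-07) and -0.31 ± 0.05 in BT549 OE (adjusted p = 2.19e-05). Its counts were 1693 and 1718 against 1455 and 1455 in MDA-MB-231, 652 and 707.7 against 503.1 and 465.3 in SUM159, and 1538 and 1572 against 1248 and 1263 in BT549, EV first, with no overlap in any line. The balance of the 2 enzymes differed between lines: the TPM ratio of SHMT2 to SHMT1 was 6.42 and 6.08 in MDA-MB-231 EV, 9.93 and 9.43 in SUM159 EV, and 0.734 and 0.752 in BT549 EV. It was 6.65 and 6.55 in MDA-MB-231 KD, 3.10 and 3.57 in SUM159 KD, and 1.11 and 1.29 in BT549 OE. By annotated transcript lengths, BT549 EV was the single group in which the cytosolic gene had the higher level. With the longest transcript as the length, SHMT1 and SHMT2 were close there, at 55.2 and 54.4 TPM.

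**Figure D3:**
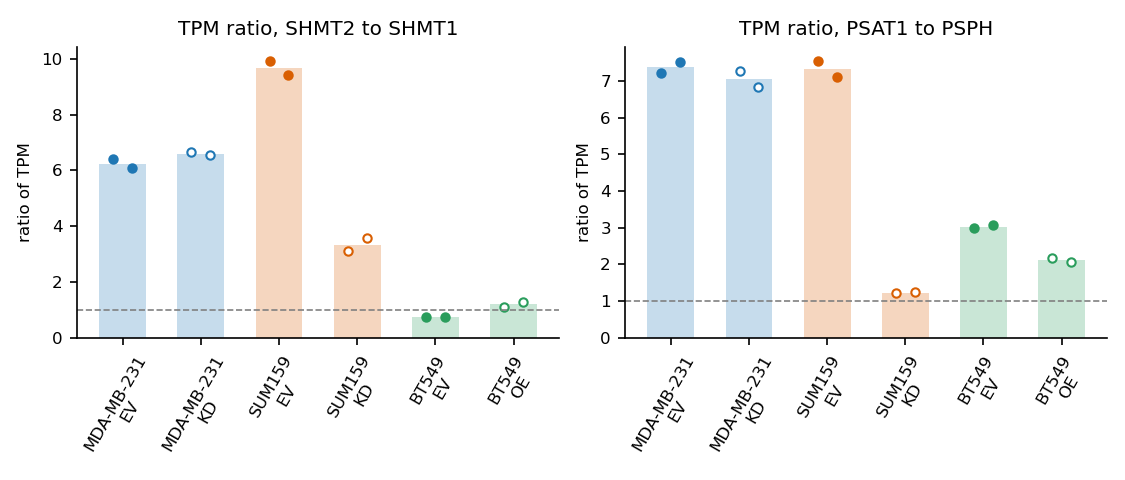
Ratio of TPM (vertical axes) of SHMT2 to SHMT1 and of PSAT1 to PSPH in each library, filled for EV and open for KD or OE; bars are the means of 2 libraries and the dashed line marks 1. SUM159 KD stands below SUM159 EV in both ratios, and BT549 EV lies below 1 for SHMT2 to SHMT1. With the longest transcript as the length, these genes are close in BT549 EV.

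MTHFD2, the mitochondrial methylenetetrahydrofolate dehydrogenase, had the highest level per length of the 10 genes in MDA-MB-231 and SUM159. Its TPM was 856 ± 33.4 (SD, n = 2) in MDA-MB-231 EV, where 0.635% of symbols stood higher, 612 ± 6.29 in SUM159 EV and 142 ± 4.79 in BT549 EV. With the longest transcript as the length its level in MDA-MB-231 EV was 350 TPM, below the 490 TPM of SHMT2, so the order of these genes rests on that choice. Its normalized counts in SUM159 were 14785 and 14690 in EV and 6631 and 6974 in KD, a log2 fold change of -1.11 ± 0.03 (adjusted p = 2.13e-19, edgeR). In MDA-MB-231 they were 17667 and 18103 in EV and 16961 and 16920 in KD, not overlapping, with a small change of -0.08 ± 0.03 (adjusted p = 0.0289). That call was lost with size factors of the RLE kind (adjusted p = 0.112), with DESeq2 (0.0804), with no filter (0.0857), and without MDA-MB-231 EV replicate 2 (-0.06, adjusted p = 0.249), KD replicate 1 (-0.08, 0.119) or KD replicate 2 (-0.07, 0.142). In BT549 the counts were 3812 and 3816 in EV and 3350 and 3427 in OE, a change of -0.17 ± 0.03 (adjusted p = 9.59e-05).

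MTHFD1L, the mitochondrial formyltetrahydrofolate synthetase, changed in opposite directions in SUM159 KD and BT549 OE. Its counts were 1093 and 1066 in SUM159 EV and 298.4 and 253.4 in KD, a log2 fold change of -1.97 ± 0.08 (adjusted p = 2.23e-16, edgeR). In BT549 they were 810.2 and 775.1 in EV and 1121 and 1107 in OE, a rise of 0.49 ± 0.07 (adjusted p = 5.28e-07). Neither pair overlapped. In MDA-MB-231 the counts were 1816 and 1928 in EV and 1700 and 1812 in KD, and the value of -0.09 (95% interval -0.20 to 0.01) missed the threshold (adjusted p = 0.203). It passed when scaled by library size only (-0.18, adjusted p = 0.0103).

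MTHFD1, the cytosolic enzyme that joins 3 folate reactions in a single protein, was the member whose KD effects were closest in the 2 lines. Its counts were 1569 and 1650 in MDA-MB-231 EV and 1145 and 1032 in KD, a log2 fold change of -0.56 ± 0.06 (adjusted p = 8.88e-08, edgeR). In SUM159 they were 2075 and 2178 in EV and 1441 and 1323 in KD, a change of -0.62 ± 0.06 (adjusted p = 1.67e-09). Both KD groups lay below their EV groups. The difference between the 2 effects was -0.06 (95% interval -0.22 to 0.10, adjusted p = 0.608). In BT549 the counts of 952.4 and 921.5 in EV and 1013 and 930.2 in OE overlapped (0.05, 95% interval -0.08 to 0.19, adjusted p = 0.496).

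ALDH1L2, a mitochondrial enzyme that oxidizes the folate-bound formyl group to carbon dioxide, was measurable in BT549. Its normalized counts there were 274.8 and 264.6 in EV and 134 and 139.2 in OE, without overlap, a log2 fold change of -0.98 ± 0.21 (adjusted p = 0.000235, edgeR). In MDA-MB-231 it had 4 and 8 reads in EV and 0 and 2 in KD, a ratio of 0.171 with a 95% counting interval of 0.0186 to 0.767. The gene passed the filter on low counts through BT549, so its nominal call in MDA-MB-231 (adjusted p = 0.0374) is not read as a change. It was lost without MDA-MB-231 EV replicate 2 (adjusted p = 0.252), without KD replicate 1 (0.267) and with DESeq2 (0.0633). In SUM159 it had 6 and 3 reads in EV and 4 and 8 in KD, a ratio of 1.23 (0.477 to 3.31). In MDA-MB-231 and SUM159, 2 of its 6 transcripts carried a missing mark that was counted as 0.

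ASNS, the asparagine synthetase, fell in all 3 comparisons, by most in SUM159 KD. Its counts were 3531 and 3682 in SUM159 EV and 530.6 and 551.6 in KD, a log2 fold change of -2.73 ± 0.06 (adjusted p = 1.33e-20, edgeR), or 6.66-fold lower. In MDA-MB-231 they were 2534 and 2788 in EV and 1507 and 1516 in KD, a change of -0.82 ± 0.05 (adjusted p = 3.7e-11). In BT549 they were 405.2 and 377.9 in EV and 282.2 and 237.0 in OE, a change of -0.59 ± 0.10 (adjusted p = 1.13e-05). No 2 neighbouring groups in the order of levels overlapped: SUM159 EV was highest, then MDA-MB-231 EV, MDA-MB-231 KD, SUM159 KD, BT549 EV and BT549 OE. Between EV groups, ASNS was 9.21-fold lower in BT549 than in SUM159 and 6.80-fold lower than in MDA-MB-231.

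ASNS lies on chromosome 7 from 97851677 to 97872542 on the minus strand (GRCh38, GENCODE 44), and 17 of its transcripts were listed. Of these, 9 had at most 10 counts in every library and 8 were tested singly. The leading transcripts were ASNS-201, which starts at 97872542, and ASNS-202, which starts at 97872408, the start whose upstream sequence is printed above. Their order differed between lines. ASNS-201 took 49.9% and 43.4% of the ASNS counts in MDA-MB-231 EV, 12.7% and 15.5% in SUM159 EV and 14.4% and 22.7% in BT549 EV. ASNS-202 took 30.1% and 37.1%, 55.7% and 58.9%, and 58.1% and 50.7% in the same groups. Expected counts divide reads that transcripts share, so a share also holds that division.

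Tested singly over 64066 transcripts, 5 ASNS transcripts were lower in SUM159 KD, where 7.18% of all transcripts were. ASNS-202 had normalized counts of 1960 and 2140 in SUM159 EV and 221.7 and 210.3 in KD (-3.25 ± 0.19, adjusted p = 1.34e-06, edgeR), and ASNS-201 had 448.7 and 563.1 in EV and 53.7 and 151.6 in KD (-2.29 ± 0.36, adjusted p = 0.00174). ASNS-203 (-2.46 ± 0.38) and ASNS-214 (-2.25 ± 0.42) were also lower, as was ASNS-213, with 79.7 and 27.5 in EV and under 1 in KD (adjusted p = 0.041). The difference between the KD effects of the lines passed for ASNS-202 (-2.51 ± 0.25, adjusted p = 0.00012), where 5.27% of all transcripts were lower, and was -1.19 ± 0.49 for ASNS-201 (adjusted p = 0.202). For ASNS-201 it rested on the SUM159 KD libraries: it was -2.15 (adjusted p = 0.00292) without replicate 2 and -0.64 (adjusted p = 0.324) without replicate 1. In MDA-MB-231 KD, 1 was lower, where 1.27% of all transcripts were: ASNS-202, with 781.1 and 1063 in EV and 500.2 and 610.3 in KD (-0.73 ± 0.17, adjusted p = 0.0495). That call was lost without MDA-MB-231 EV replicate 2 (adjusted p = 0.335), KD replicate 1 (0.308) or KD replicate 2 (0.0949). ASNS-201, with 1295 and 1244 in EV and 617.4 and 564.6 in KD, did not pass there (-1.10 ± 0.33, adjusted p = 0.132), although its groups did not overlap. In BT549 OE, 1 was lower, where 11.2% of all transcripts were: ASNS-202, with 230.3 and 188.6 in EV and 112.9 and 85.6 in OE (-1.07 ± 0.20, adjusted p = 0.00309).

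**Figure D4:**
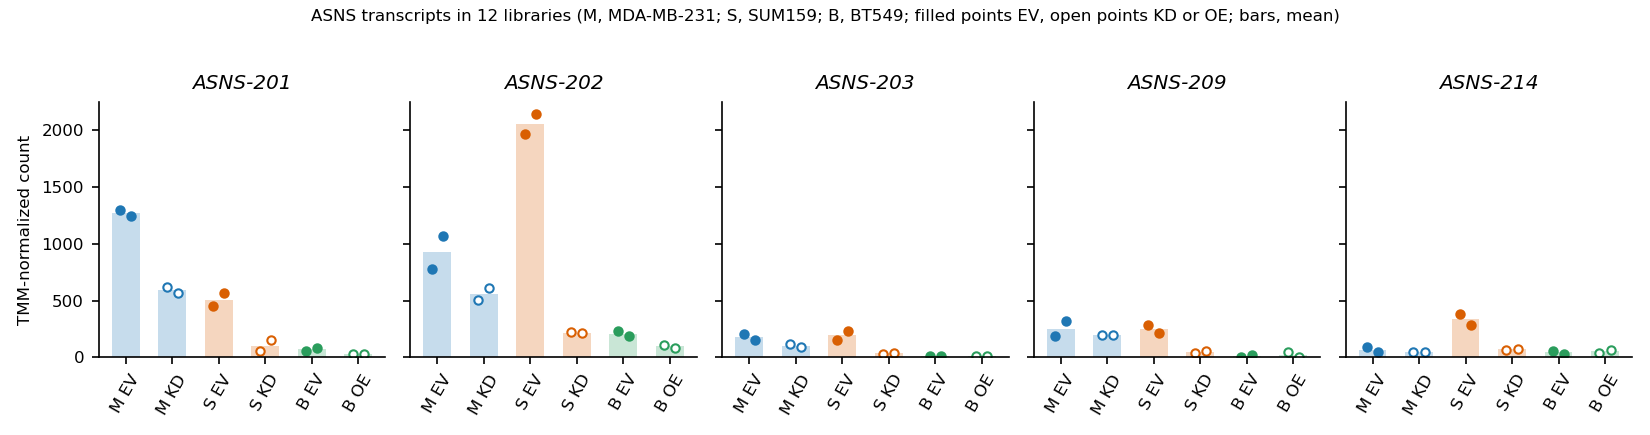
TMM-normalized counts (vertical axis, from 0) of ASNS-201, ASNS-202, ASNS-203, ASNS-209 and ASNS-214 in the 12 libraries, filled for EV and open for KD or OE; bars are the means of 2 libraries. ASNS-201 is highest in MDA-MB-231 EV (1295 and 1244) and ASNS-202 in SUM159 EV (1960 and 2140).

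A lncRNA gene without a symbol, ENSG00000284707, runs from 97851688 to 97972985 on the same strand and shares 46.7% of its 5169 exon bases with ASNS exons. Its normalized counts were 359 and 282 in MDA-MB-231 EV, 194 and 199 in KD, 496 and 440 in SUM159 EV and 86 and 70.8 in KD. In BT549 they were 47.8 and 98.5 in EV and 46.8 and 92.9 in OE. Its log2 fold changes were -0.70 ± 0.19 in MDA-MB-231 KD, -2.58 ± 0.21 in SUM159 KD and -0.08 ± 0.29 in BT549 OE, and its counts reached up to 39.2% of those of ASNS in a library. Reads of the 2 genes cannot be fully told apart, and the lncRNA is uncertain for that reason. The same limit holds for ASNS, most of all for its change of -0.59 ± 0.10 in BT549 OE, where its counts were lowest. Of 18 pseudogenes named after one of the 10 genes in the annotation, 2 were among the symbols counted, ASNSP1 and ASNSP3, with at most 7 counts. On the opposite strand, SMCR8 overlaps SHMT1, NOPCHAP1 and WASHC4 overlap ALDH1L2, and ZBTB25 overlaps MTHFD1; the strand setting of the counting is not given in the sources used here.

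The genes whose 3 log2 fold changes lay closest to those of ASNS were GDF15, NFKBIZ, ID2, ENSG00000284707 and SUSD4, out of 12588 tested genes averaging 50 counts or more. The root mean square difference was 0.155 for GDF15, a stress-induced cytokine, with changes of -0.82, -2.70 and -0.86 in MDA-MB-231 KD, SUM159 KD and BT549 OE. It was 0.229 for NFKBIZ, a nuclear IκB protein, and 0.314 for ID2, an inhibitor of helix-loop-helix transcription factors. PSAT1 ranked 8 by this measure, with 0.381, SHMT2 ranked 92 and MTHFD1L 141. PHGDH and ALDH1L2 are not ranked here, since their MDA-MB-231 values rest on too few reads.

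KD effects were then compared between the lines by testing SUM159 minus MDA-MB-231 in the same model. The fall was larger in SUM159 for 6 genes, where the same held for 27.7% of all genes tested: PSAT1 (difference -2.24 ± 0.05, adjusted p = 1.65e-20, edgeR), ASNS (-1.92 ± 0.08, adjusted p = 5.01e-15), MTHFD1L (-1.88 ± 0.09), SHMT2 (-1.51 ± 0.04), MTHFD2 (-1.04 ± 0.04) and SHMT1 (-0.26 ± 0.08, adjusted p = 0.0113). For PSPH the difference went the other way (0.32 ± 0.08, adjusted p = 0.00214), where 23.2% of all genes did. ALDH1L2 nominally passed too (2.69 ± 1.12, adjusted p = 0.0487), but on 2 to 12 reads a group, and nothing is read from it. Its value ran from 1.76 to 5.79 with single libraries left out, and the call was lost with DESeq2 (adjusted p = 0.058) and without MDA-MB-231 EV replicate 2 (0.196), MDA-MB-231 KD replicate 1 (0.219), SUM159 EV replicate 2 (0.117) or SUM159 KD replicate 2 (0.173). The SHMT1 difference was lost without SUM159 EV replicate 2 (-0.21, adjusted p = 0.0832) and without SUM159 KD replicate 2 (-0.20, adjusted p = 0.0953). TRMT112 itself fell by more in MDA-MB-231 than in SUM159 (0.47 ± 0.06), the opposite order to these 6 genes. The part of the knockdown depth in the differences was not tested.

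Across the 3 comparisons, 6 genes were lower in KD in both lines (ASNS, PSAT1, SHMT1, SHMT2, MTHFD1 and MTHFD2), where 7.47% of all genes were. Of these, ASNS, PSAT1, SHMT1 and MTHFD2 were also lower in BT549 OE, where 2.94% of all genes had all 3 calls. Both counts include MTHFD2, whose MDA-MB-231 call was lost with RLE size factors, DESeq2, no filter and 3 of the libraries left out, and without it they are 5 and 3. OE was made in BT549 only and KD in the other lines, so construct and line cannot be told apart.

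The summed level of the 10 genes brought these differences together. It was 2200 and 2260 TPM in MDA-MB-231 EV and 1820 and 1810 in KD, 1840 and 1820 in SUM159 EV and 570 and 579 in KD, and 639 and 608 in BT549 EV and 463 and 473 in OE. SUM159 KD thus stood below BT549 EV, although SUM159 EV stood close to MDA-MB-231 KD. MTHFD2 made up between 22.7% and 48.3% of the sum in each library. These sums and shares rest on the annotated transcript lengths and differ with the longest transcript as the length. MTHFD2 in MDA-MB-231 EV was then 350 TPM instead of 856, below PSAT1 at 587.

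**Figure D5:**
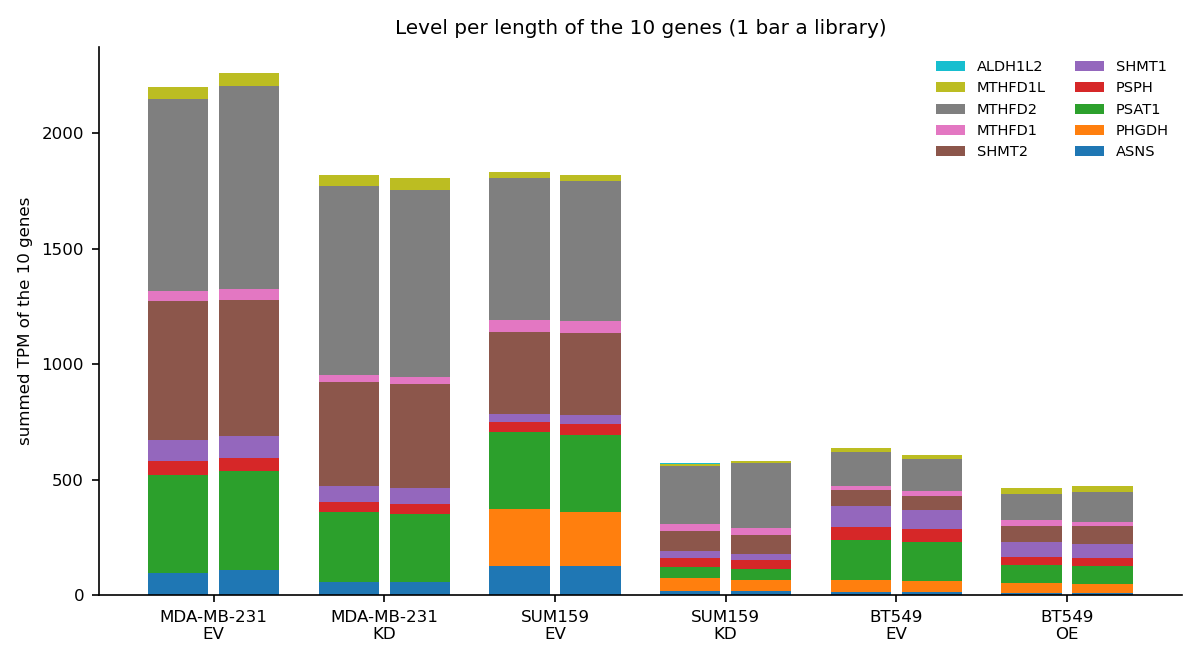
Summed TPM of the 10 genes (vertical axis, from 0) in each of the 12 libraries, with each gene as a stacked colour. The sum is 2200 and 2260 in MDA-MB-231 EV and 570 and 579 in SUM159 KD, and PHGDH is visible in SUM159 and BT549 alone.

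Between EV groups, 7 of the 10 genes were lower in BT549 than in MDA-MB-231, where 40.4% of all genes were, and 3 were higher (PHGDH, PSPH and ALDH1L2), where 39.1% were. The largest differences below MDA-MB-231 were those of SHMT2 (-2.79 ± 0.04), ASNS (-2.77 ± 0.07) and MTHFD2 (-2.23 ± 0.03), followed by MTHFD1L (-1.24 ± 0.06), PSAT1 (-0.84 ± 0.03), MTHFD1 (-0.78 ± 0.06) and SHMT1 (-0.13 ± 0.05). The SHMT1 call was lost with DESeq2 (adjusted p = 0.0751) and without MDA-MB-231 EV replicate 2 (0.102), BT549 EV replicate 1 (0.122) or BT549 EV replicate 2 (0.0525). The higher level of PSPH (0.38 ± 0.05) was not called when scaled by library size only (0.07, adjusted p = 0.256), which moved the median of all genes by -0.31 in this comparison. Against SUM159 EV, 7 were lower in BT549 EV (40.7% of all genes) and 3 higher (PSPH, SHMT1 and ALDH1L2; 37.7% of all genes). SHMT1 differed most between SUM159 and MDA-MB-231 EV after PHGDH (-1.33 ± 0.06); there, 6 genes were lower in SUM159 and 3 higher, where 36.4% and 39.2% of all genes were. PSAT1 was close in these 2 groups (-0.09 ± 0.03, adjusted p = 0.011), and that call was lost without MDA-MB-231 EV replicate 2 (adjusted p = 0.0722), SUM159 EV replicate 1 (0.0599) or SUM159 EV replicate 2 (0.0525).

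The gene sums hold transcripts of several annotated classes. For MTHFD2, transcripts annotated as targets of nonsense-mediated decay took 37.1% and 40.0% of its counts in MDA-MB-231 EV, 33.4% and 33.7% in MDA-MB-231 KD, 51.8% and 49% in SUM159 EV, and 45.4% and 44.3% in BT549 EV. In BT549 OE they took 55.6% and 55.8%, above both EV libraries, and in SUM159 KD 52.3% and 49.9%, overlapping EV. Its leading protein-coding transcript, MTHFD2-201, held 26.6% ± 0.412 (SD, n = 2) in BT549 EV and 26.0% ± 0.134 in OE. For PHGDH, retained-intron transcripts held 3.24% and 3.19% of counts in SUM159 EV and 5.12% and 5.95% in KD. In BT549 they held 5.49% and 5.31% in EV and 5.55% and 4.34% in OE, so the SUM159 KD level is not particular to KD. No test was run on these shares, and they depend on how shared reads were divided.

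Neighbouring pathways were described by fixed lists of other genes, chosen with earlier results of these data known. An excess over the shares of all genes is therefore a description and not a test. The counts of the lists are to be read against the shares of all genes called. Those shares were 16.5% lower and 21.2% higher in MDA-MB-231 KD, 31.4% and 28.6% in SUM159 KD, and 35.0% and 35.6% in BT549 OE. Of 16 listed genes of the ATF4 arm of the integrated stress response, 12 were lower in MDA-MB-231 KD, 12 in SUM159 KD and 11 in BT549 OE, with 2, 2 and 4 higher, so the lower counts exceeded those shares in each comparison; the list medians were -0.44, -0.83 and -0.77. ATF4 itself was lower in SUM159 KD (-1.01 ± 0.03, adjusted p = 8.23e-19, edgeR) and BT549 OE (-0.74 ± 0.03, adjusted p = 2.51e-15), and was -0.05 ± 0.03 (adjusted p = 0.192) in MDA-MB-231 KD. The called genes with the smallest p were DDIT4, an inhibitor of mTORC1 signalling, in SUM159 KD (-2.07 ± 0.03) and BT549 OE (-1.74 ± 0.03), and PPP1R15A, which promotes dephosphorylation of eIF2α, in MDA-MB-231 KD (-0.70 ± 0.03). In the other direction stood EIF2AK3, an eIF2α kinase, in MDA-MB-231 KD (0.29 ± 0.07), VLDLR in SUM159 KD (1.83 ± 0.17) and STC2 in BT549 OE (1.27 ± 0.04).

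Purine synthesis, which uses the folate-bound carbon units, had 12 genes tested. In SUM159 KD, 10 were lower and 1 higher (median -0.78), in MDA-MB-231 KD 6 lower and 4 higher (median -0.09), and in BT549 OE 1 lower and 10 higher (median 0.50). The shares of all genes were 31.4% lower in SUM159 KD and 35.6% higher in BT549 OE. GART, which catalyses 3 steps of the pathway, fell from 2618 ± 45.7 (SD, n = 2) to 827.2 ± 25 in SUM159 KD (-1.66 ± 0.05), and ATIC, of the last steps, from 3562 ± 35.6 to 2230 ± 55.3 in MDA-MB-231 KD (-0.68 ± 0.04). In BT549 OE, IMPDH1, of guanine nucleotide synthesis, rose from 227.3 ± 14.5 to 3214 ± 149 (3.82 ± 0.07). It was also the 1 gene higher in SUM159 KD (0.47 ± 0.04). PRPS1 had the smallest p of the genes higher in MDA-MB-231 KD (0.33 ± 0.03) and ADSS2 the gene lower in BT549 OE (-0.87 ± 0.07).

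Of 13 tested genes of asparagine, aspartate and glutamine use, 12 were lower in SUM159 KD and 0 higher (median -0.74); 4 were lower and 5 higher in MDA-MB-231 KD (median 0.00), and 4 lower and 6 higher in BT549 OE (median 0.28). The 12 lower genes stand against 31.4% of all genes, while the BT549 counts lie near the 35.0% and 35.6% of all genes. NARS1, which charges the asparagine tRNA, fell in SUM159 KD (-1.54 ± 0.04) and MDA-MB-231 KD (-0.27 ± 0.05). ASS1, which joins aspartate to citrulline, fell in BT549 OE (-3.98 ± 0.08) and rose in MDA-MB-231 KD (0.28 ± 0.04).

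In the methionine cycle and transsulfuration, 6 genes were tested. CTH, the cystathionine gamma-lyase, went from 518.7 ± 7.10 (SD, n = 2) in SUM159 EV to 40.6 ± 7.46 in KD (-3.66 ± 0.15), and it fell in MDA-MB-231 KD too (-0.85 ± 0.12). Lower genes numbered 5, 2 and 2 in SUM159 KD, MDA-MB-231 KD and BT549 OE, and higher genes 0, 1 and 3, against 31.4%, 16.5% and 35.0% of all genes lower; with 6 genes, the BT549 count of lower genes is near that share. AHCYL1 rose in MDA-MB-231 KD (0.35 ± 0.04) but fell in BT549 OE (-0.83 ± 0.04), where AHCY rose (1.03 ± 0.04).

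The folate cycle and transport list was mixed. Of its 14 tested genes, 2 were lower and 5 higher in MDA-MB-231 KD, 6 lower and 4 higher in SUM159 KD, and 4 lower and 7 higher in BT549 OE, with medians of 0.00, 0.02 and 0.32. The lower genes in MDA-MB-231 KD (16.5% of all genes) and the higher genes in SUM159 KD (28.6%) lie near the background. MTHFD2L, the paralog of MTHFD2, was lower in both KD lines (-1.12 ± 0.21 and -1.13 ± 0.18). The folate carrier SLC19A1 fell in SUM159 KD (-0.92 ± 0.05), where GGH rose (0.45 ± 0.05), FPGS rose in MDA-MB-231 KD (0.39 ± 0.04), and the thymidylate synthase TYMS rose in BT549 OE (0.84 ± 0.03).

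For glycine cleavage and serine or glycine use, 15 genes were tested, of which 2 were lower and 6 higher in MDA-MB-231 KD, 6 lower and 4 higher in SUM159 KD, and 8 lower and 5 higher in BT549 OE. The medians were 0.07, -0.45 and -0.12. Here too the lower genes in MDA-MB-231 KD (16.5% of all genes) and the higher genes in SUM159 KD (28.6%) lie near the background. GCSH, the carrier protein of glycine cleavage, rose in BT549 OE (1.85 ± 0.06), and SDSL, a serine dehydratase-like gene, rose in SUM159 KD (1.09 ± 0.09) and fell in BT549 OE (-2.15 ± 0.09). DLD fell in SUM159 KD (-0.96 ± 0.06), SRR rose in MDA-MB-231 KD (0.56 ± 0.07), and SPTLC2 fell there (-0.23 ± 0.06).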

How the data were processed

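The authors deposited a table of expected counts per Ensembl transcript for 12 polysome RNA libraries, with 2 libraries in each of 6 groups. The submitters' processing notes name Trimmomatic, HISAT2, SAMtools and Partek, and the versions are not given in the sources used here. The labels describe an oligo-dT library kit and the study's methods a ribosomal RNA depletion kit, and which was used is not settled here. Totals were 22954226 to 27434677 per library. Of 201932 transcripts, 160832 (79.6%) matched GENCODE 44 (GRCh38) by identifier and held at least 99.25% of counts; 10254 rows (5.08%) carried a missing mark in the MDA-MB-231 and SUM159 columns, which was taken as 0. Counts were summed per symbol, rounded and tested with edgeR 4.0.16 (quasi-likelihood, filterByExpr, TMM, all 12 libraries in 1 model, Benjamini-Hochberg threshold 0.05) under R 4.3.3. Single transcripts were tested likewise. TPM used annotated transcript lengths. DESeq2 1.42.0, other scalings, no filter, a replicate block and leaving out each library were alternatives, and the fit was tested on simulated data.

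The genes and lists were chosen with earlier results of these data known. All 10 genes are named; from each list, the called gene with the smallest p in each direction of each KD or OE comparison was named, and the 5 genes nearest to ASNS by root mean square difference. ATF4, the TPM ratios and the transcript classes were picked after values were seen. Same-numbered libraries did not deviate together (r = 0.02, -0.02 and 0 over 12589 genes), so numbers were not used as pairs. Intervals on counts cover counting error only. ESR1 is not analysed here, and 2 genes that the naming rule picked are not reported here.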

Additional observations from a re-analysis of the deposited data

Results flagged for a closer look

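For 7 of the 10 genes, and nominally for ALDH1L2, the effect of TRMT112 KD differed between SUM159 and MDA-MB-231 when the difference was tested in 1 edgeR model. On the log2 scale, as the SUM159 effect minus the MDA-MB-231 effect, it was -2.24 for PSAT1, -1.92 for ASNS, -1.88 for MTHFD1L, -1.51 for SHMT2, -1.04 for MTHFD2 and -0.26 for SHMT1, whose KD libraries were lower by more in SUM159. It was 0.32 for PSPH, which was lower with KD in MDA-MB-231 and did not pass the test in SUM159, and 2.69 for ALDH1L2. By the same test, 27.7% of all genes passed with a negative difference and 23.2% with a positive one. A difference between the lines is therefore common among all genes and not particular to these. The ALDH1L2 value rests on 2 to 12 reads a group in a gene that passed the filter through BT549, and its call was lost with DESeq2 (adjusted p = 0.058), with a replicate block (0.0593) and without any of 4 libraries in turn, so nothing is read from it. The SHMT1 call was lost without SUM159 EV replicate 2 (adjusted p = 0.0832) or SUM159 KD replicate 2 (0.0953).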

How the results depend on the processing

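Of 789 alternatives for the fold changes of the 10 genes, 754 kept direction and side of the threshold, 27 lost the call, 1 gained it and 7 reversed; all 110 for BT549 EV against SUM159 EV kept both. The 7 reversals were of values that were not called: ALDH1L2 between SUM159 and MDA-MB-231 EV was 0.26 without MDA-MB-231 EV replicate 2 and 0.12 without SUM159 EV replicate 2, and in SUM159 KD -0.12 without SUM159 EV replicate 2 and -0.16 without KD replicate 2. MTHFD1 in BT549 was -0.01 without OE replicate 1, and its difference between lines 0.01 without MDA-MB-231 KD replicate 1 or SUM159 KD replicate 2. Over all single libraries left out these 4 values lay between -0.85 and 0.26, -0.16 and 0.86, -0.01 and 0.11, and -0.14 and 0.01.

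With a fold of at least 1 on the log2 scale required, by construction fewer calls were left. Of the 16538 genes tested, 530 were called in MDA-MB-231 KD (264 higher, 266 lower), 2592 in SUM159 KD (1204 and 1388) and 5183 in BT549 OE (2665 and 2518). The difference between lines had 2478 (1193 and 1285). Between EV groups there were 6100 for SUM159 against MDA-MB-231 (2954 and 3146), 7514 for BT549 against MDA-MB-231 (3557 and 3957) and 7233 for BT549 against SUM159 (3467 and 3766). Of the 10 genes, the 1 then lower in MDA-MB-231 KD was ALDH1L2, on 12 reads against 2, which is not read as a change. In BT549 OE 1 of the 10 was lower and 0 higher. In the difference between lines 5 were lower and 1 higher (ALDH1L2, on few reads). Between EV groups, 2 were called for SUM159 against MDA-MB-231 (1 higher, 1 lower) and 6 for BT549 against MDA-MB-231 (4 lower). Read against the counts over all genes, those of the 10 genes in BT549 OE and between EV groups do not stand out. The exact motif TGATGCAA left 1 gene.

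Library size alone moved the median of all genes by -0.31 and -0.21 for BT549 EV against MDA-MB-231 and SUM159 EV, and the share of calls that were higher from 56.2% to 36.7% in MDA-MB-231 KD, from 49.1% to 38.4% and from 48.1% to 40.6%. With DESeq2, 1 of the 10 genes was higher in the difference between lines. Leaving out single libraries gave 1 to 2 there, 0 to 1 ASNS transcripts called in MDA-MB-231 KD and 1 to 2 in the difference between lines. A replicate block, on numbers that do not pair the libraries, left 1 of the 10 genes higher in the difference between lines (ALDH1L2, 2.69, adjusted p = 0.0593, was lost) and called 2 ASNS transcripts in BT549 OE, adding ASNS-201 (-1.20, adjusted p = 0.0497). Levels per length with the longest transcript were 0.383 (MTHFD2, MDA-MB-231 KD) to 1.5 (PSAT1, SUM159 KD and BT549 OE) times the values given. With 2 libraries a group, small changes rest on the pooled spread. The cause of these shifts was not tested.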
